A study of Mus musculus with 30 samples.

Results

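The Notch pathway genes followed here are 3 receptors (Notch1, Notch2, Notch3), the ligands Jag1 and Dll1, the receptor-modifying enzyme Lfng, the target genes Hes1, Hey1 and Heyl, and the inhibitor Numb. Their members were all probe sets whose platform gene symbol was 1 of these 10 names alone. A probe set is a set of short oligonucleotides that gives 1 intensity on an Affymetrix array. This gave 19 probe sets of 45265 in all, 18 on the A array type and 1, for Jag1, on the B type. Of the 19, 15 passed the intensity filter and were tested, 14 on the A type and the 1 on the B type.

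The RNA came from cell culture of mouse eye-moving (extraocular) muscle, as the titles name it, sampled at 0, 4, 12, 24 and 48 h. There were 3 arrays per time on each array type and 30 arrays in all. The labels give time as the only difference between groups and name no strain, age, genotype or treatment, and the event taken as 0 h is not stated. Separate cultures are not named for the replicates either, so a p-value here reflects the spread of arrays, part or all of which may be technical. For B array replicate 1 of 0 h the title names extraocular muscle and the source name leg muscle. It was kept under its title, and the Jag1 result that rests on it is given with and without it.

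Notch signalling passes between touching cells. A ligand of the Delta or Jagged family on 1 cell binds a Notch receptor on its neighbour, the metalloprotease Adam10 and then gamma-secretase cut the receptor, and the freed intracellular domain enters the nucleus, joins the DNA-binding protein Rbpj and a Mastermind co-activator, and switches on Hes and Hey genes, which encode transcriptional repressors. In skeletal muscle the pathway is known for keeping satellite cells and myoblasts undifferentiated, and satellite cells carry Notch3 and Heyl among its genes, as smooth muscle cells and pericytes of vessel walls also do.

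Among the Notch pathway genes, Notch3 was the member whose change from 0 h passed at the most times, by 1 of its 2 probe sets. It was higher at 12, 24 and 48 h, while Hey1 and Lfng were lower at 48 h. Jag1 on the B arrays, Hes1 and 1 of 3 Heyl probe sets were higher at 24 h, and of these Jag1 was also higher at 48 h. Notch1, Notch2, Dll1 and Numb did not pass at any time. Of the changes from 0 h that passed, only that of Notch3 at 24 h was kept under every alternative processing and without any 1 array.

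Promoter sequence is shown for the members that changed over time and that the RefSeq promoter table of build GRCm38.p6 holds, so that the sequence upstream of each can be set beside its values. Each window is the 250 bases before the transcript's start, 5′ to 3′ on the gene's strand. The array files themselves name no build. The motifs searched, on both strands, were the Rbpj consensus GTGGGAA, its core TGGGAA, which lies within the consensus, the E-box CAGCTG bound by myogenic factors, and the N-box CACNAG bound by Hes proteins. Capitals mark matches to the first 3 of these motifs, and a TGGGAA on the opposite strand appears as TTCCCA.
Notch3, chr17:32166891-32167140, - strand: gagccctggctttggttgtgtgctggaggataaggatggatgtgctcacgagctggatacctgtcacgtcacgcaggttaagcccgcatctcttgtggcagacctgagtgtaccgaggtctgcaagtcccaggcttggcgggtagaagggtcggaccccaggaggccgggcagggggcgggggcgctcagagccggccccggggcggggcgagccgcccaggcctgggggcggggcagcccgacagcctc
Jag1, chr2:137116521-137116770, - strand: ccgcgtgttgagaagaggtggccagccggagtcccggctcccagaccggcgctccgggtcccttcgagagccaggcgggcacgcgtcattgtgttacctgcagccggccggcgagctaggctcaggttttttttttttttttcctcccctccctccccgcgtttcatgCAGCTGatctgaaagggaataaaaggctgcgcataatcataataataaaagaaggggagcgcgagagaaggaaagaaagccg
Lfng, chr5:140607091-140607340, + strand: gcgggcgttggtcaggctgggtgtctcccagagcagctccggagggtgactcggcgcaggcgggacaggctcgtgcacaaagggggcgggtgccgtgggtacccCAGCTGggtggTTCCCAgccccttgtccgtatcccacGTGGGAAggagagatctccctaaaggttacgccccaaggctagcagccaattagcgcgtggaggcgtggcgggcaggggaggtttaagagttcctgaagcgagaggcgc

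The Lfng window held 1 GTGGGAA, from 109 to 103 bases before the start, a second TGGGAA on the opposite strand from 135 to 130 bases before it, a CAGCTG from 146 to 141 bases before it, and 1 CACNAG. The Jag1 window held 1 CAGCTG, from 82 to 77 bases before the start, and neither form of the Rbpj motif nor CACNAG. The Notch3 window held 2 CACNAG and none of the other motifs. Of 32851 promoter windows of the same length in the table, 5.42% held GTGGGAA, 21.6% TGGGAA, 13% CAGCTG and 36.7% CACNAG. The table gave windows for 7 of the 10 genes, 10 windows in all, and Hes1, Hey1 and Heyl had none. A match describes letters only, and no binding was measured.

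All values are intensities in arbitrary units, brought to a common scale within each array type. Every change is therefore relative to the array. Apart from the summed levels of the marker lists, no level of 1 probe set was set against that of another. Group values are mean ± SD with n = 3 arrays per time. Changes are log2 changes of intensity plus 16, ± SE, from a limma model fitted to all 13577 tested probe sets of the A type or all 13507 of the B type. A change counts as passed at an adjusted p under 0.05 (Benjamini-Hochberg over all tested probe sets). In this bulk RNA, fewer cells of a type and less RNA per cell cannot be told apart.

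**Figure D1:**
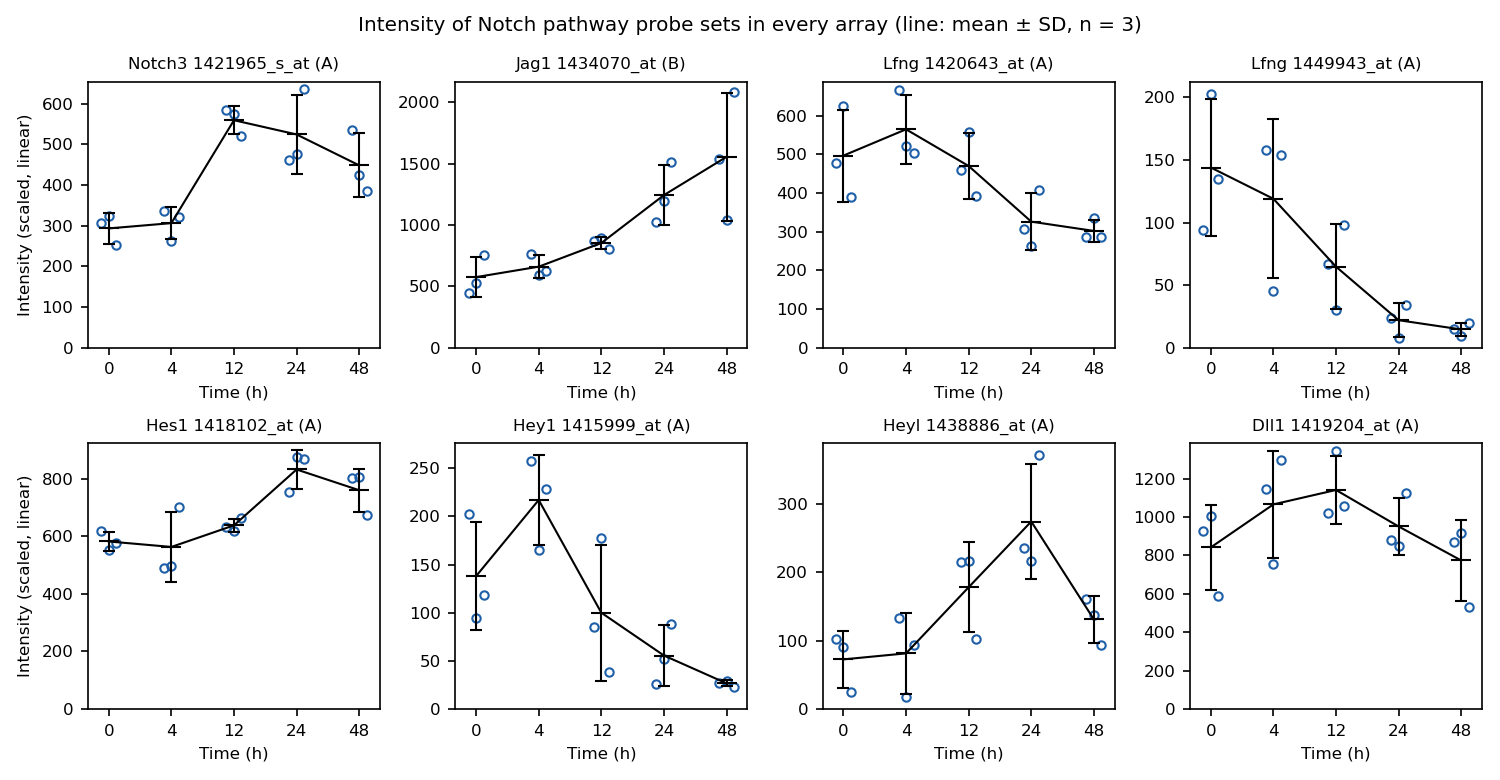
Intensity (linear, arbitrary units, vertical axis from 0) of Notch pathway probe sets in every array against time in hours, with the 5 times evenly spaced. Points are single arrays and the line and bars are mean ± SD (n = 3 arrays). The 3 Notch3 1421965_s_at arrays of 12 h lie between 519 and 583, all above the 0 h arrays, which lie between 251 and 323.

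Each array correlated with the other arrays of its time at 0.962 to 0.979 on the A type and 0.852 to 0.891 on the B type, across probe sets. Of 11 general skeletal muscle genes 9 were above the filter on the A arrays (Myf5 and Myf6 were below it). These genes do not tell extraocular from leg muscle. The A arrays of a time often kept the same order across the Notch pathway probe sets. At 24 h, replicate 3 was the highest of 3 for 13 of the 14 tested probe sets, against 45.7% of all tested probe sets. At 0 h, replicate 3 was the lowest for 10 of 14, against 38%, and at 48 h replicate 3 was the lowest for 10 of 14, against 36.7%. These counts were added after the values were seen. The A array changes at 24 h that passed, and those of Notch1 1418634_at and the other Heyl probe sets, are given without 24 h replicate 3 too. Except for Hes1, they are also given without 0 h replicate 3.

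The members were chosen with earlier results of these data known, so the shares set beside their counts are a description and no test of the set. Counted over the 14 tested A array probe sets, 3 passed limma's F-test for any change with time, against 7.59% of all tested. None passed at 4 h against 0 h, where 0.0295% of all tested passed. At 12 h against 0 h 1 passed (background 0.368%). At 24 h against 0 h 3 passed (5.56%), all higher (3.23% of all tested were called higher). At 48 h against 0 h 3 passed (6.7%), of which 1 was higher (4.2%) and 2 lower (2.5%). Between neighbouring times, 1 passed for 12 h against 4 h (0.295%), none for 24 h against 12 h (0.0884%) and none for 48 h against 24 h (0.626%). An unadjusted limma p under 0.05 was reached by 0, 3, 9 and 4 of 14 at 4, 12, 24 and 48 h against 0 h. Of all tested, 6.02%, 12.8%, 19.6% and 19.7% reached it. For the neighbouring times, in the same order as above, the counts were 3, 2 and 1, beside 11.5%, 7.09% and 11.4% of all tested. The median change of the tested members was 0.15, 0.35, 0.36 and 0.18 at 4, 12, 24 and 48 h. Over all tested probe sets it was 0.01, 0, -0.01 and 0.02. Positive changes numbered 11, 11, 11 and 9 of 14, beside 51.8%, 50.2%, 48.2% and 52.5% of all tested. Several of the 14 read the same gene and are not independent. The changes at every time also share the 0 h arrays, of which replicate 3 was the lowest for 10 of 14, against 38% of all tested. The medians and positive counts of the separate times are therefore not separate evidence of a rise.

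**Figure D2:**
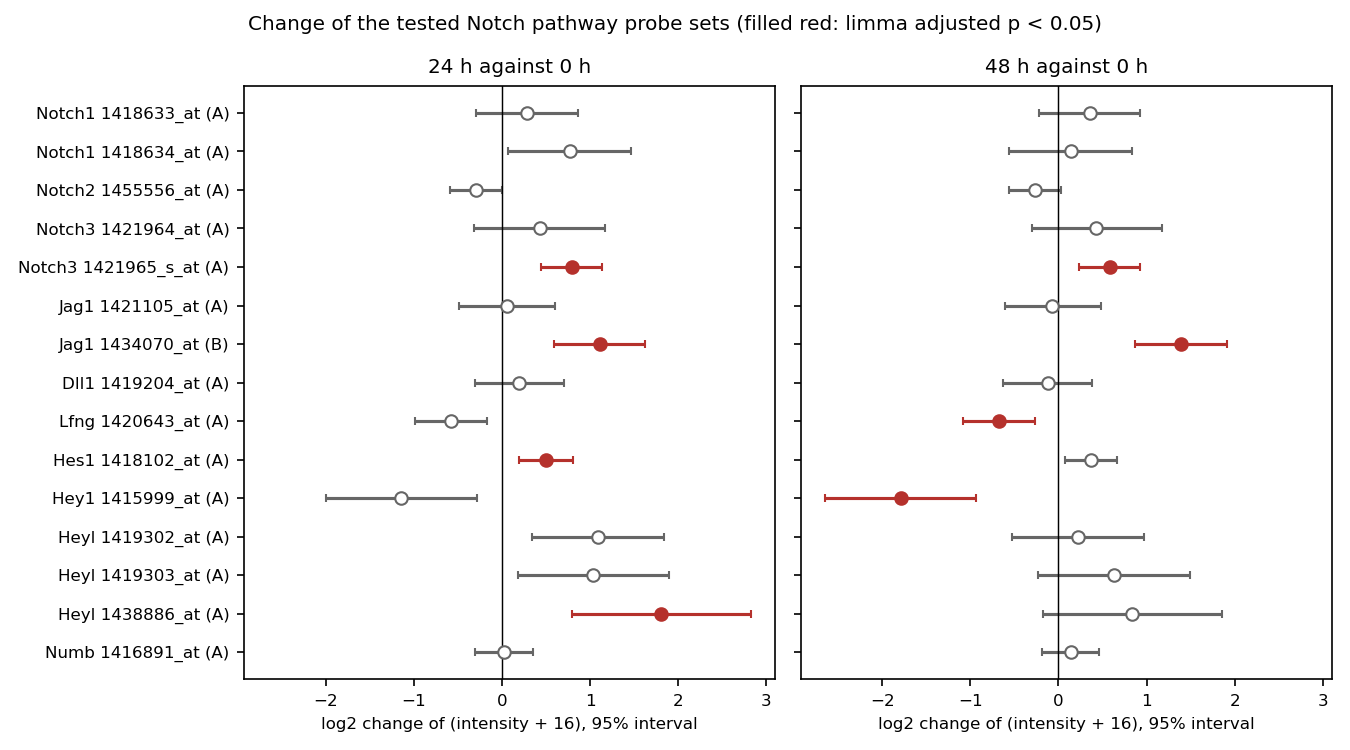
Log2 change of intensity plus 16 against 0 h for each tested Notch pathway probe set, with its 95% interval, with a panel each for 24 h and 48 h, filled red where limma's adjusted p was under 0.05. At 48 h Jag1 1434070_at lies highest at 1.39 and Hey1 lowest at -1.79, while Numb lies at 0.14.

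Of the receptors, Notch3 rose between 4 and 12 h by 1 of its 2 probe sets, and by this probe set remained above its 0 h level. Its probe set 1421965_s_at read 306, 323 and 251 in the 0 h arrays and 336, 262 and 320 at 4 h. At 12 h the arrays read 583, 574 and 519, at 24 h 462, 475 and 635, and at 48 h 536, 425 and 384. No array of 12, 24 or 48 h overlapped the arrays of 0 or 4 h. The means were 293 ± 37.6 at 0 h, 306 ± 39.3 at 4 h, 559 ± 34.5 at 12 h, 524 ± 96.1 at 24 h and 448 ± 78.8 at 48 h. The log2 change from 0 h was 0.90 ± 0.16 at 12 h (limma adjusted p = 0.0294), 0.80 ± 0.16 at 24 h (adjusted p = 0.00815) and 0.58 ± 0.16 at 48 h (adjusted p = 0.0418). From 4 h to 12 h it was 0.84 ± 0.16 (adjusted p = 0.0373), and the F-test over time gave an adjusted p of 0.00278. Neither 24 h against 12 h nor 48 h against 24 h passed (-0.10 ± 0.16 and -0.22 ± 0.16, adjusted p = 0.94 and 0.677).

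The Notch3 change at 24 h passed in all 24 alternative settings, including each of the 15 arrays left out in turn. Without 24 h replicate 3 it was 0.66 (adjusted p = 0.0375), and without 0 h replicate 3 it was 0.69 (adjusted p = 0.0398). The call at 12 h was lost without any 1 of the 0 h arrays or without 12 h replicate 1 or 2 (changes of 0.80 to 0.97, adjusted p up to 0.144). That at 48 h was lost without any 1 of the 0 h arrays, 4 h replicates 1 or 3, 12 h replicate 1, 24 h replicate 2, or 48 h replicates 1 or 2 (0.45 to 0.65, adjusted p up to 0.196). The change from 4 h to 12 h lost its call without any 1 of the 4 h arrays or without 12 h replicate 1 or 2 (0.74 to 0.91, adjusted p up to 0.171). With only the times compared, the 12 h and 48 h calls were lost too (adjusted p = 0.131 and 0.0883), as they were with median scaling (adjusted p = 0.0554 and 0.0831) and with no filter (adjusted p = 0.0522 and 0.0674). Quantile normalization ended the 48 h call (adjusted p = 0.0589). Leaving out the intensity trend ended those at 12 h against 0 h and against 4 h (adjusted p = 0.0565 and 0.0549), and the latter was lost with no filter too (adjusted p = 0.0706). The other Notch3 probe set, 1421964_at, was near the filter and varied more, with means of 82.0 ± 25.6 at 0 h and 131 ± 56.6 at 12 h. Its changes were 0.56 ± 0.35 at 12 h and 0.43 ± 0.35 at 24 h (adjusted p = 0.538 and 0.565), and its 24 h interval, -0.31 to 1.17, included the change of the first.

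Some markers of smooth muscle and pericytes, vessel-wall cells known to carry Notch3, were also higher at the late times. Each marker was read by its probe set with the highest mean on the array type. On the A arrays 7 of 11 listed markers were above the filter, and Myh11, Cnn1, Abcc9 and Kcnj8 were below it. Of the 7, 4 were higher at 24 h (Tagln, Smtn, Pdgfrb and Mcam) and 3 at 48 h (Tagln, Pdgfrb and Mcam), while Acta2, Rgs5 and Cspg4 passed at neither time. The summed level of the list ranged from 12756 to 19237 over the 0 h arrays, from 15182 to 19773 at 12 h, from 19280 to 20744 at 24 h and from 16229 to 18711 at 48 h. The sums at 12 h overlapped those at 0 h. Acta2, at 14160 ± 4064 at 0 h and 13979 ± 386 at 24 h, made up most of the sums of those times. The sums therefore say little about the other markers. Pdgfrb, a pericyte receptor that cultured mesenchymal cells also carry, read 414 ± 103 at 0 h and 1111 ± 137 at 24 h. Myh11, the defining myosin of differentiated smooth muscle, read 11.6 ± 11.5 at 0 h and 6.47 ± 0.503 at 24 h. On the B arrays the probe sets of Acta2 and Abcc9 were above the filter, and neither passed in limma at 24 or 48 h. The part of these cells in the Notch3, Jag1, Hes1 and Heyl results was not tested.

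Notch1 and Notch2, which satellite cells carry along with Notch3, did not pass at any time. Notch1 1418634_at read 894, 850 and 336 at 0 h, 859, 1051 and 1458 at 24 h and 723, 824 and 581 at 48 h. Its 0 h group was spread by the low replicate 3, and the groups overlapped. The change at 24 h was 0.77 ± 0.33 (limma adjusted p = 0.205, interval 0.07 to 1.47). It was 0.33 without 0 h replicate 3 (adjusted p = 0.618) and 0.57 without 24 h replicate 3 (adjusted p = 0.439). The other Notch1 probe set, 1418633_at, stayed between means of 290 ± 75.5 at 0 h and 374 ± 77.4 at 48 h, with a 24 h change of 0.29 ± 0.27 (adjusted p = 0.636).

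Notch2 1455556_at had the smallest standard error of the tested receptor probe sets. Its means were 489 ± 31.8 at 0 h, 484 ± 21.0 at 4 h, 476 ± 26.5 at 12 h, 397 ± 45.8 at 24 h and 407 ± 70.2 at 48 h. All 3 arrays of 24 h (380, 362 and 448) lay below the 3 of 0 h (524, 462 and 480), but the change of -0.29 ± 0.14 did not pass (limma adjusted p = 0.252). Its second probe set, 1451889_at, averaged 60.95 and was below the filter of 101, with time means from 42.7 to 76.4 and overlapping groups throughout.

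Of the ligands, Jag1, a transmembrane ligand of all these receptors, was higher at 24 and 48 h by its B array probe set. Jag1 1434070_at read 442, 528 and 756 at 0 h, 764, 589 and 628 at 4 h and 867, 891 and 803 at 12 h. It read 1027, 1195 and 1511 at 24 h and 1540, 1041 and 2087 at 48 h. Each group from 12 h on lay wholly above the 0 h arrays, and the 24 and 48 h arrays also lay above those of 12 h. The means were 575 ± 163, 660 ± 91.8, 853 ± 45.6, 1244 ± 246 and 1556 ± 523, which put 24 h at 2.16 times and 48 h at 2.71 times the 0 h mean. The log2 change was 0.59 ± 0.24 at 12 h (limma adjusted p = 0.551), 1.11 ± 0.24 at 24 h (adjusted p = 0.042) and 1.39 ± 0.24 at 48 h (adjusted p = 0.00719). The F-test over time gave an adjusted p of 0.0239. On the B arrays 1.02% of all tested probe sets passed the F-test, 0.97% passed at 24 h and 0.933% at 48 h.

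The Jag1 calls rested in part on the 0 h array whose source name is leg muscle. Without it the change was 0.94 at 24 h (limma adjusted p = 0.184) and 1.22 at 48 h (adjusted p = 0.0548), so both calls were lost. At 48 h no other single array ended the call, and the change without each array ranged from 1.15 to 1.65. At 24 h the call was kept only without 0 h replicate 3, 12 h replicate 3, 48 h replicate 2 or 48 h replicate 3, and the adjusted p ranged from 0.0246 to 0.184. The F-test call was lost without 0 h replicates 1 or 2, 4 h replicate 3, 24 h replicate 2, or 48 h replicates 1 or 3 (adjusted p from 0.0531 to 0.0759). With only the 0 and 48 h arrays in the fit the 48 h call was lost as well (adjusted p = 0.079).

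The A array probe sets of Jag1 did not pass. Jag1 1421105_at stayed between means of 105 ± 20.6 and 137 ± 47.3, with a 48 h change of -0.07 ± 0.26 (limma adjusted p = 0.918, interval -0.61 to 0.48), an interval that lies below the 0.87 to 1.91 of the B array probe set. Jag1 1421106_at averaged 86.19, below the filter, and read 30.4, 80.7 and 52.4 at 0 h, 80.3, 105 and 158 at 24 h and 119, 62.7 and 135 at 48 h. In the fit with no filter its 24 h change was 0.91 ± 0.38 (adjusted p = 0.278). The 3 probe sets of this gene thus gave 1 rise past the threshold, 1 set of changes near 0 and 1 positive change that did not pass. A difference between probe sets on separate array types was not tested.

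Dll1, the Delta-type ligand known for maintaining muscle progenitors, had its highest mean at 12 h. Its means were 842 ± 220 at 0 h, 1066 ± 279 at 4 h, 1141 ± 176 at 12 h, 951 ± 149 at 24 h and 774 ± 212 at 48 h. The 12 h arrays (1023, 1343 and 1056) lay just above the 0 h arrays (929, 1005 and 591). The change of 0.46 ± 0.24 did not pass (limma adjusted p = 0.441), and neither did that of -0.12 ± 0.24 at 48 h (adjusted p = 0.829).

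**Figure D3:**
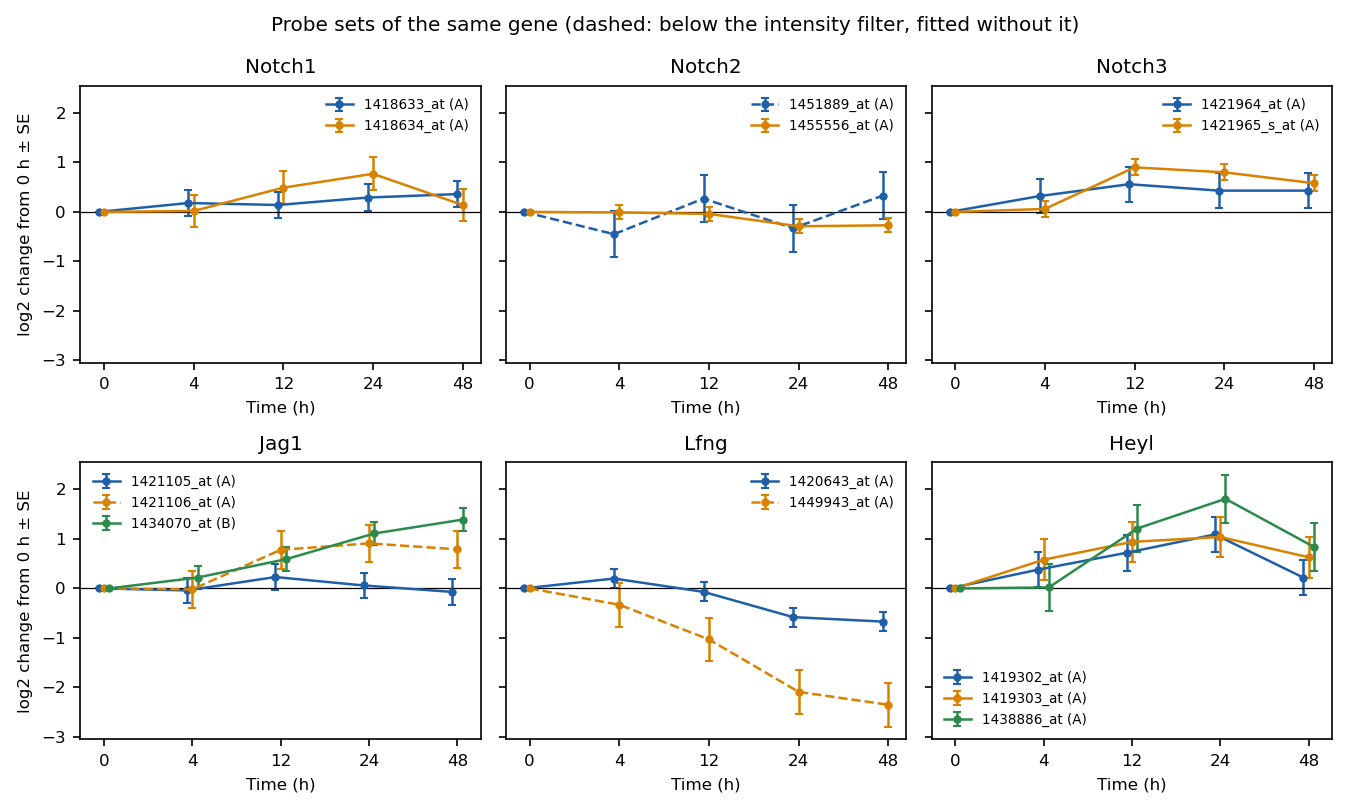
Log2 change from 0 h (vertical axis) against time in hours for genes read by more than 1 probe set, 1 line per probe set, dashed where the probe set was below the intensity filter. The Lfng lines both end below 0 at 48 h (-0.67 and -2.35), while the Jag1 lines end at 1.39, 0.79 and -0.07.

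Lfng, the Fringe glycosyltransferase that adds sugar to Notch receptors and so alters which ligands activate them, fell at 48 h. This is the gene whose upstream window holds the GTGGGAA match. Lfng 1420643_at read 478, 625 and 389 at 0 h, 668, 523 and 505 at 4 h and 459, 559 and 392 at 12 h. It read 307, 263 and 408 at 24 h and 286, 335 and 285 at 48 h. All 48 h arrays lay below those of 0, 4 and 12 h, and at 24 h only replicate 3 overlapped the 0 h arrays. The log2 change was -0.58 ± 0.19 at 24 h (limma adjusted p = 0.0944) and -0.67 ± 0.19 at 48 h (adjusted p = 0.0475), with an F-test adjusted p of 0.0222.

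The Lfng call at 48 h lay close to the threshold. It was kept without 0 h replicate 3, 12 h replicates 2 or 3, or 24 h replicates 2 or 3, and was lost without any other single array (changes of -0.74 to -0.50, limma adjusted p up to 0.182). The F-test call was lost without 4 h replicate 1, 24 h replicate 1, or 48 h replicates 1 or 3 (adjusted p from 0.0512 to 0.066). The 48 h call was lost as well with no filter (adjusted p = 0.079), no intensity trend (adjusted p = 0.0606) and only the times compared (adjusted p = 0.0624). Without 24 h replicate 3 the 24 h change was -0.75 and passed (adjusted p = 0.0458).

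The second Lfng probe set, 1449943_at, averaged 72.87 over all arrays and so was not tested with the filter, but its 0 h arrays were well above its late ones. It read 94.4, 203 and 135 at 0 h, 158, 45.6 and 154 at 4 h, 66.5, 29.8 and 97.8 at 12 h, 23.9, 7.4 and 34.4 at 24 h and 14.8, 9.3 and 19.5 at 48 h. Neither the 24 h nor the 48 h arrays overlapped those of 0 h. In the fit with no filter its changes were -2.09 ± 0.44 at 24 h (limma adjusted p = 0.0168) and -2.35 ± 0.44 at 48 h (adjusted p = 0.00608). Values this low have no detection call in the files, so the size of the late levels is uncertain.

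The target genes went different ways. Hes1, the basic helix-loop-helix repressor that Notch induces in many tissues, was higher at 24 h. It read 617, 553 and 575 at 0 h, 489, 496 and 703 at 4 h, 631, 620 and 664 at 12 h, 753, 874 and 870 at 24 h and 802, 805 and 673 at 48 h. The arrays of 24 and 48 h all lay above those of 0 h. The change was 0.50 ± 0.14 at 24 h (limma adjusted p = 0.0487) and 0.37 ± 0.14 at 48 h (adjusted p = 0.144), and the F-test did not pass (adjusted p = 0.052). The 24 h call was kept only without 4 h replicates 2 or 3 or 48 h replicate 3. Without any other array it was lost, with changes of 0.47 to 0.57 and adjusted p up to 0.154, and without 24 h replicate 3 the change was 0.47 (adjusted p = 0.115). The call was lost as well with quantile normalization (adjusted p = 0.0636), median scaling (adjusted p = 0.0719), no filter (adjusted p = 0.0679), no intensity trend (adjusted p = 0.0628) and only the times compared (adjusted p = 0.0671).

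Hey1, a Hes-related repressor, fell at 48 h. It read 202, 94.8 and 118 at 0 h, 257, 165 and 228 at 4 h, 85.6, 178 and 38.3 at 12 h, 26.4, 51.8 and 88.5 at 24 h and 27.4, 29.5 and 23.2 at 48 h. The 48 h arrays lay below every array of 0, 4 and 12 h, and the 24 h arrays lay below those of 0 h. The mean was highest at 4 h, 217 ± 47.1, and lowest at 48 h, 26.7 ± 3.21. The log2 change from 0 h was 0.64 ± 0.41 at 4 h (limma adjusted p = 0.909), -1.14 ± 0.41 at 24 h (adjusted p = 0.118) and -1.79 ± 0.41 at 48 h (adjusted p = 0.0122). The F-test over time gave an adjusted p of 0.00567.

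Hey1 averaged 107.6 over all arrays, just above the filter of 101, and passed it through its early times, so its place among the tested members is no support for the fall. The 48 h call was lost without 0 h replicate 1 alone (-1.52, limma adjusted p = 0.0783), and over the runs without 1 array the change ranged from -2.00 to -1.52. For this dim probe set the size moved with the pseudocount, to -2.26 with 1 and -1.12 with 64 in place of 16, and the call was kept with both (adjusted p = 0.0103 and 0.0178). Hey1 is also used by endothelial cells, whose markers were mostly below the filter. Of the 11 listed endothelial markers 3 were above it (Kdr, Flt1 and Egfl7), and none changed at 24 or 48 h. Pecam1, Cdh5, Tek, Tie1, Emcn, Esam, Robo4 and Cldn5 were below it. The summed level of the list was 601 to 893 at 0 h, 571 to 906 at 24 h and 778 to 876 at 48 h, most of its members being below the filter. The part of these cells in the Hey1 result was not tested.

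Of the 9 skeletal muscle markers tested on the A arrays, 2 passed at 24 h and 2 at 48 h. Tnnt3 (fast troponin T) and Myh3 (embryonic myosin) were higher at 24 h, with Tnnt3 at 3103 ± 145 at 0 h and 6525 ± 1775 at 24 h. At 48 h Tnnt3 was higher and Myod1, the myogenic determination factor, was lower (7444 ± 1899 at 0 h and 4413 ± 647 at 48 h). Myog, Des, Acta1, Ckm, Cdh15 and Chrna1 passed at neither time. On the A arrays the list's summed level ranged from 47636 to 62047 at 0 h and from 49541 to 58901 at 48 h. The B array probe sets of Myod1 and Ckm were above the filter, and neither passed in limma at 24 or 48 h. That of Myod1 read 229 ± 98.4 at 0 h and 270 ± 109 at 48 h. Of the 7 fibroblast markers 1, Col3a1, was above the filter on the A arrays and was higher at 24 and 48 h, and the list's sums there were 2465 to 2933 at 0 h and 3818 to 4209 at 48 h. On the B arrays 3 fibroblast markers (Pdgfra, Dcn and Tcf21) were above the filter and none passed in limma at 24 or 48 h. Their part in the Lfng, Hey1 and other Notch pathway results was not tested.

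Heyl, the third of the Hey repressors, had its highest mean at 24 h in each of its 3 probe sets. Heyl 1438886_at read 102, 90.8 and 25.2 at 0 h, 133, 17.1 and 93.8 at 4 h, 215, 217 and 103 at 12 h, 235, 216 and 371 at 24 h and 161, 137 and 94.0 at 48 h. The 24 h arrays lay above all 0 h and 4 h arrays, and the 48 h arrays overlapped those of 0 h. The means of 0 h (72.6 ± 41.4) and 4 h (81.4 ± 59.1) were below the filter of 101. The probe set passed the filter through its later times, so its place among the tested members is no support for the rise. The change was 1.81 ± 0.48 at 24 h (limma adjusted p = 0.0357) and 0.84 ± 0.48 at 48 h (adjusted p = 0.358). The F-test did not pass (adjusted p = 0.0679). Over the alternatives other than leaving out 1 array, the 24 h change of this dim probe set ranged from 1.33 to 2.09. The 24 h call was lost without 0 h replicate 3 (1.33, adjusted p = 0.143), 24 h replicate 1 (1.90, adjusted p = 0.085), replicate 2 (1.96, adjusted p = 0.0724) or replicate 3 (1.59, adjusted p = 0.116), and with no filter (adjusted p = 0.0745), no intensity trend (adjusted p = 0.0518) or a pseudocount of 1 (adjusted p = 0.0566).

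The other Heyl probe sets did not pass with all arrays in the fit. Heyl 1419302_at went from 272 ± 112 at 0 h to 603 ± 278 at 24 h and 306 ± 72.9 at 48 h (24 h change 1.09 ± 0.36, limma adjusted p = 0.0874). Its 24 h arrays of 490, 399 and 919 lay above the 0 h arrays of 270, 384 and 161. Heyl 1419303_at went from 79.4 ± 67.5 at 0 h to 150 ± 12.6 at 24 h (1.04 ± 0.41, adjusted p = 0.163), and its groups overlapped. Without 0 h replicate 3 these changes were 0.78 and 0.56 (adjusted p = 0.284 and 0.49), and without 24 h replicate 3 they were 0.75 and 0.99 (adjusted p = 0.284 and 0.275). Heyl 1419302_at passed without 12 h replicate 3 (1.09, adjusted p = 0.0474) and Heyl 1419303_at without 0 h replicate 2 (1.58, adjusted p = 0.02). The low 0 h replicate 3 and the high 24 h replicate 3 were the lowest and the highest array of their times in all 3 of these probe sets.

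Numb, the membrane-associated adaptor that promotes removal of Notch receptors, had the smallest 24 h change of the tested members. Its probe set 1416891_at had means of 333 ± 56.1, 358 ± 12.2, 333 ± 18.1, 340 ± 60.4 and 364 ± 19.6 from 0 to 48 h. The 24 h change was 0.02 ± 0.15 with an interval of -0.30 to 0.35 (limma adjusted p = 0.957). Its other probe set, 1425368_a_at, averaged 9.507 and was below the filter.

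The other genes of the pathway came from a list of 48 that holds further ligands, the proteases, nuclear partners and ubiquitin ligases. Of these, 44 were on either array type and 36 were tested. On the A arrays 5 of their 52 tested probe sets passed the F-test, which is 9.62% beside the 7.59% of all tested. At 24 h 2 were higher and 1 lower, and at 48 h 2 were higher and 1 lower. These are 5.77% of the 52 at each time, beside 5.56% and 6.7% of all tested, so the shares lay near the background. In limma none passed at 4 h, where 3 had an unadjusted p under 0.05, beside 6.02% of all tested. None passed at 12 h, where 6 had such a p, beside 12.8% of all tested. On the B arrays none of 21 passed limma's F-test, and 2 had an unadjusted p under 0.05, beside 10% of all tested.

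Jag2, the second Jagged ligand, fell by 1426431_at from 447 ± 35.8 at 0 h to 268 ± 17.6 at 48 h (-0.70 ± 0.17, limma adjusted p = 0.0161), while its other probe set, 1426430_at, had a change of -0.11 ± 0.21 (adjusted p = 0.819). Fbxw7, the ubiquitin ligase subunit that marks the Notch intracellular domain for breakdown, rose by 1424986_s_at from 144 ± 13.6 to 288 ± 34.5 at 24 h (0.92 ± 0.17, adjusted p = 0.00314) and 260 ± 19.7 at 48 h (0.79 ± 0.17, adjusted p = 0.00784). Its other probe set, 1451558_at, changed by 0.43 ± 0.13 at 48 h and did not pass (adjusted p = 0.0508). Neurl1a, a ubiquitin ligase that acts on Notch ligands, rose by 1453527_a_at from 363 ± 101 to 657 ± 59.4 at 24 h (0.86 ± 0.22, limma adjusted p = 0.0281). None of its other tested probe sets passed at 24 h. Their changes ran from 0.17 ± 0.36 for 1456854_at on the B arrays (adjusted p = 0.933) to 0.70 ± 0.22 for 1460343_at on the A arrays (adjusted p = 0.0751).

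The receptor-cutting metalloproteases each passed the F-test with 1 of their 3 tested A array probe sets and in no comparison with 0 h. Adam10 1428103_at went from 1104 ± 114 at 0 h through 1356 ± 69.6 at 4 h to 879 ± 166 at 48 h (limma F-test adjusted p = 0.0433). Adam17 1421858_at went from 785 ± 55.4 to 591 ± 11.8 at 12 h and 635 ± 14.4 at 48 h (F-test adjusted p = 0.0486). Nle1, a WD-repeat protein named for its link to Notch and also needed for ribosome assembly, rose from 341 ± 34.1 to 547 ± 72.2 at 48 h (0.65 ± 0.15, adjusted p = 0.0119).

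**Figure D4:**
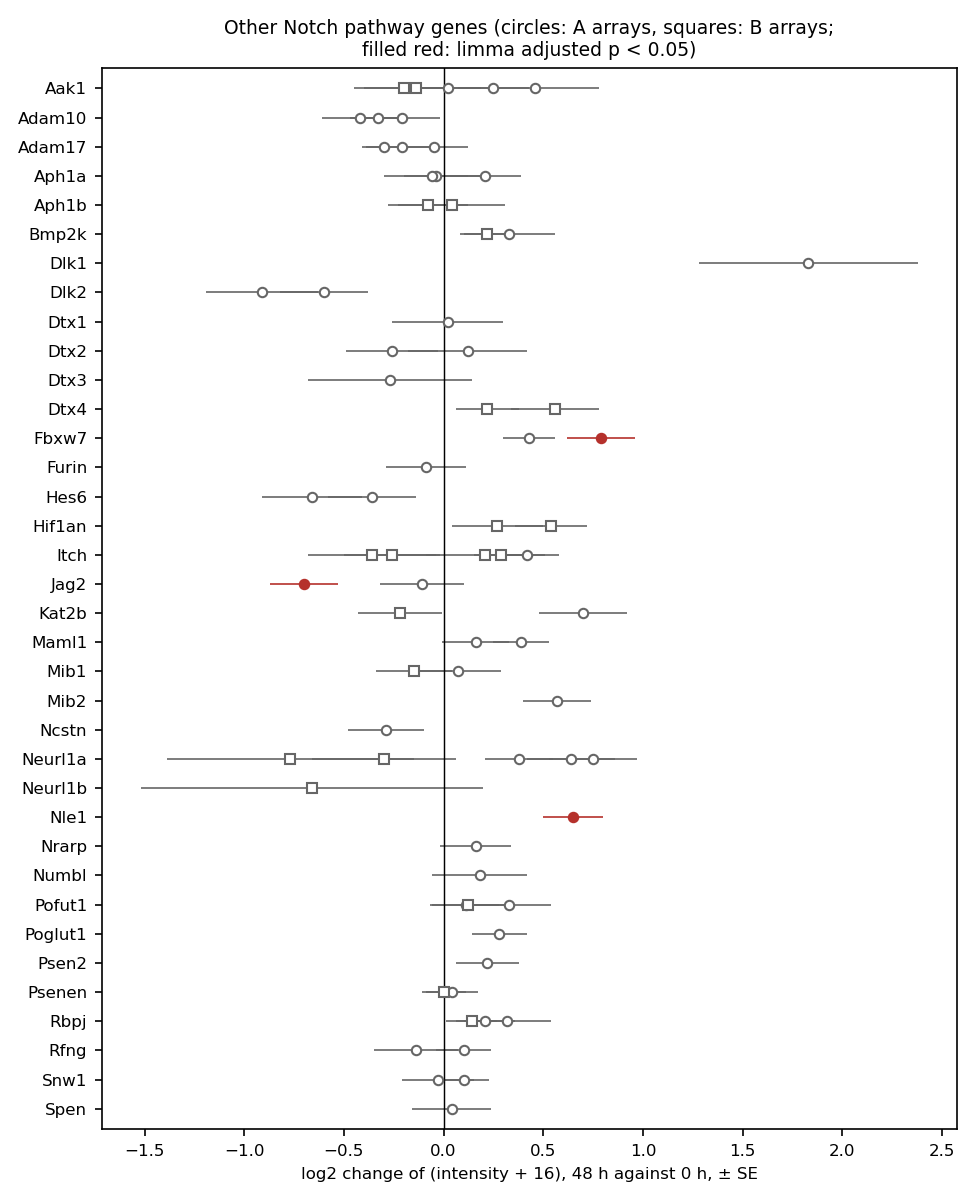
Log2 change at 48 h against 0 h of the tested probe sets of the other Notch pathway genes, 1 row per gene, circles for A and squares for B arrays, filled red where limma's adjusted p was under 0.05. The filled points are Fbxw7 at 0.79 and Nle1 at 0.65 above 0 and Jag2 at -0.70 below it.

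For the probe sets past the F-test, the genes with the most similar time course were taken as those with the smallest root mean square difference of the 5 time means of log2 intensity, each centred on its own mean. Over these 5 times, Notch3 1421965_s_at was nearest to Lgals2 (0.035) and Coro2b (0.089) of 13146 candidates. Lfng 1420643_at was nearest to Hmgb3 and Antxr1 (0.041 each), Hey1 to Cxcr4 (0.184) and Tafa5 (0.197), and Jag1 1434070_at to Atp13a5 (0.047) and Dclk1 (0.10) on its own array type. The points share arrays, and the ranking is a description of 5 means.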

How the data were processed

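Total RNA of mouse extraocular muscle cell culture was hybridised to an A and a B type of Affymetrix array, per the labels with a standard Affymetrix protocol. The summary software is not given in the sources used here. The deposited intensities are linear, 1 per probe set, and had been scaled per array by the authors: the mean without the lowest and highest 2% was 500.2 on every A and 500.1 on every B array. They hold no detection calls. Gene names come from the platform annotation, updated by Entrez identifier.

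Log2(intensity + 16) was used with no added scaling, which understates the changes of dim probe sets. Controls (64 per type) and probe sets with a mean below the 40th percentile (101 on A, 199.6 on B) were left out. limma 3.58.1 in R 4.3.3 fitted 1 mean per time to the 15 arrays of a type (lmFit, eBayes with intensity trend), with an F-test and contrasts against 0 h and the preceding time. Members below the filter were fitted without it. The code was tested on simulated data. As alternatives, the arrays were scaled by quantile normalization or by their medians, the pseudocount or filter was changed, the trend was dropped, the replicate number entered as a block, the fit was limited to the times compared, or 1 array was left out.

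The members, the gene and marker lists and the motifs were chosen with earlier results of these data known. All members are named; of the other pathway genes, those past the threshold in the F-test or against 0 h; and the 2 genes most like each member past the F-test. Figures were drawn with matplotlib 3.10.9.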

Additional observations from a re-analysis of the deposited data

How the results depend on the processing

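Over 32 member changes and 757 alternative values, 656 kept their direction and side of the threshold, 87 lost the call, 3 gained it and 11 changed sign. Only the 10 called changes could lose a call, so all 87 losses fall on them. None of the 10 changed sign. Settings whose filter left out a probe set gave no value for it and are not counted. On the A arrays, the count past the F-test (3) ranged from 2 to 5 without 1 array. That at 24 h (3) ranged from 1 to 3 and was 1 without the intensity trend. That at 48 h (3) ranged from 0 to 3 and was 1 with the replicate block, and likewise 1 with only the times compared. For Jag1, the only B member, the count past the F-test (1) ranged from 0 to 1 without 1 array and was 0 without the trend. At 24 h it ranged from 0 to 1 and was 0 with no filter, without the trend and with only the times compared, and at 48 h it ranged from 0 to 1 and was 0 with only the times compared. The sign changed only for changes that did not pass, and only without 1 array: Notch1 1418634_at at 48 h (-0.31 to 0.38), Jag1 1421105_at at 24 h (-0.05 to 0.21) and 48 h (-0.17 to 0.08), Dll1 at 24 h (-0.03 to 0.34) and 48 h (-0.35 to 0.12), Heyl 1419302_at at 48 h (-0.09 to 0.49) and Numb 1416891_at at 24 h (-0.08 to 0.17). The cause was not tested. The replicate numbers showed no clear pairing of the arrays, though pairing is not excluded. Over 30 pairs per type the correlation of same-numbered deviations ran from -0.36 to 0.42 on the A arrays (10 over 0.1). On the B arrays it ran from -0.1 to 0.11 (1 over 0.1). The median was 0 on both types, for same-numbered and for other pairs. On the A and B types 6 of 15 and 5 of 15 arrays correlated best with their own number. The block ended the calls of Notch3 1421965_s_at at 48 h (adjusted p = 0.0542) and from 4 h to 12 h (adjusted p = 0.0514), Lfng 1420643_at at 48 h (adjusted p = 0.0592) and Hes1 at 24 h (adjusted p = 0.0633), and no other called change of a member. With 3 arrays per time and no detection calls, levels near or below the filter are the least certain. The fit of Lfng 1449943_at with no filter was not repeated without single arrays.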
